A study of Mus musculus with 9 samples.

Results

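The EGF receptor gene *Egfr*, 4 of its ligand genes (*Hbegf*, *Areg*, *Ereg* and *Btc*) and the receptor inhibitor gene *Errfi1* were examined in osteocyte-like MC3T3-E1 cells exposed to organic or inorganic phosphate. These 6 genes, of 55416 in the count table, were selected by name from knowledge of the receptor, but with results of these data known, so their own values are given as a description, and where they are counted against a threshold the count is no evidence about them. Of the 6 genes, 4 had enough reads to be tested (*Egfr*, *Errfi1*, *Hbegf* and *Ereg*), while *Areg* and *Btc* fell below the filter on low counts.

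MC3T3-E1 is a pre-osteoblastic line from mouse calvarial bone, here wild type and a single subclone, so that replicates share 1 clone. Cells of all groups had been differentiated with dexamethasone, ascorbic acid and β-glycerophosphate (BGP), an organic phosphate. On day 27 they were given BGP at 4 mM, sodium phosphate (NaHPO4, an inorganic phosphate) at 4 mM, or nothing (Control) for 16 h, and the comparison addressed how the cells respond to each type of phosphate. The medium of all groups also held sodium phosphate, which the authors name as a possible confounder. They also state that alkaline phosphatase rapidly degrades added BGP to inorganic phosphate. Each group had 3 libraries of poly(A) RNA. The sample labels describe osteogenic medium until the day of treatment, whereas the methods describe removal of BGP after differentiation, so the phosphate history of the Control cells is not settled by these sources. Nothing states that the libraries of a group came from separate cultures, so p-values measure only the spread between these libraries, which may be technical. In RNA from whole wells, fewer cells of a type and less RNA per cell cannot be told apart.

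Total counts lay between 21390839 and 28234404 per library, so that 3 counts in a library corresponded to 0.105 to 0.140 CPM (counts scaled to library size). All 6 osteoblast markers (*Runx2*, *Sp7*, *Alpl*, *Col1a1*, *Bglap* and *Ibsp*) and all 6 osteocyte markers (*Dmp1*, *Fgf23*, *Sost*, *Mepe*, *Phex* and *Pdpn*) passed the filter on low counts. None of 6 epithelial markers and none of 3 endothelial markers passed it. Of the epithelial markers *Epcam*, *Krt8* and *Krt18* had 0 counts in all 9 libraries, and the summed level of all 6 was at most 0.473 CPM in a library. Of the other lists, 3 of 4 chondrocyte, 1 of 4 adipocyte and 2 of 4 blood cell markers passed the filter.

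The EGF receptor is a tyrosine kinase at the cell surface. Its ligands are made as membrane-bound precursors, and metalloproteases of the ADAM family cut them free, after which ligand binding pairs receptors and starts the RAS, RAF, MEK and ERK cascade, PI3K and STAT signalling. *Errfi1* encodes MIG6, a cytoplasmic protein that is made after receptor activation, binds the kinase domain and blocks it, and so closes a feedback loop. In bone, signalling by this receptor is known to keep osteoblast progenitors growing and to restrain their maturation. *Areg* encodes amphiregulin, which parathyroid hormone is known to induce in osteoblasts through cyclic AMP.

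Since *Errfi1* and *Areg* are both textbook targets of rapid induction, the windows of 300 bases around the start sites of the members were read from RefSeq (GRCm38.p6) and searched on both strands for 5 motifs that were picked after the expression values were seen. These were the cyclic AMP response element (CRE, TGACGTCA), the AP-1 site (TGANTCA), the EGR site (GCGNGGGCG), the CArG box that serum response factor binds, and TATAAA. Together with the neighbouring ligand gene *Epgn*, 7 genes were looked up, of which 5 (*Errfi1*, *Areg*, *Btc*, *Egfr* and *Epgn*) matched, with 6 windows, and *Hbegf* and *Ereg* had no entry. The CRE was found in 2 of these windows, 1 of the 2 of *Errfi1* and that of *Areg*, and is shown here in capitals within otherwise lower-case sequence, written 5′ to 3′ on the + strand.
Errfi1, chr4:150854820-150855119: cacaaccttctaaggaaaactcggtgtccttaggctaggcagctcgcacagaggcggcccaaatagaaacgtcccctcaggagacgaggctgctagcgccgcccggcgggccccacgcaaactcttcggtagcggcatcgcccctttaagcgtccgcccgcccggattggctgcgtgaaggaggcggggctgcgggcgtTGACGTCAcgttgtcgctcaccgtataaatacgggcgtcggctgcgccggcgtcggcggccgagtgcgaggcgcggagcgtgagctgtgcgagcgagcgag
Areg, chr5:91139349-91139648: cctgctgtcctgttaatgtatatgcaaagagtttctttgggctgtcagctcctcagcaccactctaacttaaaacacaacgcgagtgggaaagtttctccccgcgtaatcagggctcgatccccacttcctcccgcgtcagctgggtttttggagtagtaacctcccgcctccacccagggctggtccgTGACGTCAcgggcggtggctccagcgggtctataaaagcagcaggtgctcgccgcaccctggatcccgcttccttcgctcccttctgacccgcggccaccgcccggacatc
The first base of the CRE lay at position -51 from the start site in *Errfi1* and at position -61 in *Areg*, with TATAAA beginning downstream of it at -28 and at -31. Of 32851 promoter windows of the same length in the table, 1.79% held the CRE, 7.81% the AP-1 site, 5.55% the EGR site, 1.63% the CArG box and 13.6% TATAAA. *Epgn* held TATAAA at -86 and none of the other motifs, and the remaining windows held none of the 5. Each of the printed windows had 1 exact match in GRCm39, the build of the counts. There the start site of this *Errfi1* window is at 150939527 on chromosome 4, downstream of the annotated start of the gene, and that of *Areg* at 91287458 on chromosome 5. A match describes letters in these windows and does not show that a factor was bound.

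*Errfi1* was the most highly expressed member, and it moved in opposite directions with the 2 phosphates (plot of levels by library). The gene lies on chromosome 4 at 150938376 to 150955402 (GRCm39, + strand) and has 4 exons in its canonical transcript. Its TMM-normalized level was 186, 189.6 and 191 CPM in the 3 Control libraries, 212, 221 and 205 CPM with BGP, and 160.4, 159 and 158 CPM with NaHPO4. The 3 groups did not overlap, BGP being the highest and NaHPO4 the lowest. Means were 189 ± 2.68, 213 ± 7.75 and 159 ± 1.39 CPM (SD, n = 3), respectively. Relative to Control the log2FC was 0.17 ± 0.0349 (SE) with BGP and -0.25 ± 0.0351 with NaHPO4, and BGP exceeded NaHPO4 by a log2FC of 0.42 ± 0.0350, a fold change of 1.34. These are small changes, all below 0.5 in size on the log2 scale. An antisense gene of the later annotation, *Gm69161*, shares 484 exon bases with *Errfi1* and is not analysed here. Whether the counting used strand is not given in the sources used here, so *Errfi1* and antisense reads cannot be told apart.

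Levels of the cell markers also differed between the groups in which *Errfi1* differed. The summed level of the 6 osteoblast markers was 54915 to 58624 CPM in Control, 53167 to 56826 CPM with BGP and 48698 to 51946 CPM with NaHPO4, so that the NaHPO4 libraries were the lowest. For the 6 osteocyte markers it was 138 to 159 CPM in Control, 600 to 687 CPM with BGP and 386 to 445 CPM with NaHPO4. *Dmp1*, which encodes a matrix protein of osteocytes, carried most of this sum, at 76.0 ± 10.4, 552 ± 41.8 and 349 ± 30.3 CPM (SD, n = 3). Of the rest of the list, *Sost* did not follow it, at 1.39 ± 0.0360, 1.21 ± 0.599 and 0.427 ± 0.0792 CPM in Control, BGP and NaHPO4. The means of *Mepe* (3.45, 3.44 and 3.07 CPM) and *Pdpn* (30.5, 30.1 and 30.4 CPM) were similar. The means of *Fgf23* and *Phex* had the same order of groups as *Dmp1*, but Control and NaHPO4 were within their spread of each other. *Fgf23* was at 1.20 ± 0.367, 8.39 ± 1.60 and 1.54 ± 0.271 CPM and *Phex* at 34.7 ± 0.543, 41.6 ± 3.75 and 36.7 ± 4.89 CPM. The chondrocyte and blood cell lists had their highest sums with BGP and their lowest with NaHPO4, as *Errfi1* did. For the 4 chondrocyte markers the sum was 248 to 306 CPM in Control, 339 to 446 CPM with BGP and 185 to 264 CPM with NaHPO4, so that BGP stood apart while Control and NaHPO4 overlapped. *Col2a1*, the collagen gene of cartilage, carried most of it, at 242 ± 32.4, 342 ± 54.4 and 177 ± 42.9 CPM. In contrast, *Acan*, which encodes a cartilage proteoglycan, was at or near 0 in every group. It was at 0 in all Control libraries and averaged 0.0150 CPM with BGP and 0.0238 CPM with NaHPO4, below the level of 3 counts. *Sox9* was similar in the groups, at 40.8 ± 3.25, 41.5 ± 0.995 and 38.7 ± 4.14 CPM. The 4 blood cell markers summed to 1.65 to 1.96, 1.98 to 2.30 and 1.44 to 1.61 CPM. Nearly all of this came from *Cd68* (0.913 ± 0.335, 1.08 ± 0.236 and 0.763 ± 0.289 CPM) and *Csf1r* (0.922 ± 0.336, 1.00 ± 0.0912 and 0.779 ± 0.209 CPM). Each of them was within its spread between the groups. The 4 adipocyte markers overlapped between the groups, at 9.86 to 15.7 CPM. The part of these markers in the *Errfi1* values was not tested.

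**Figure D1:**
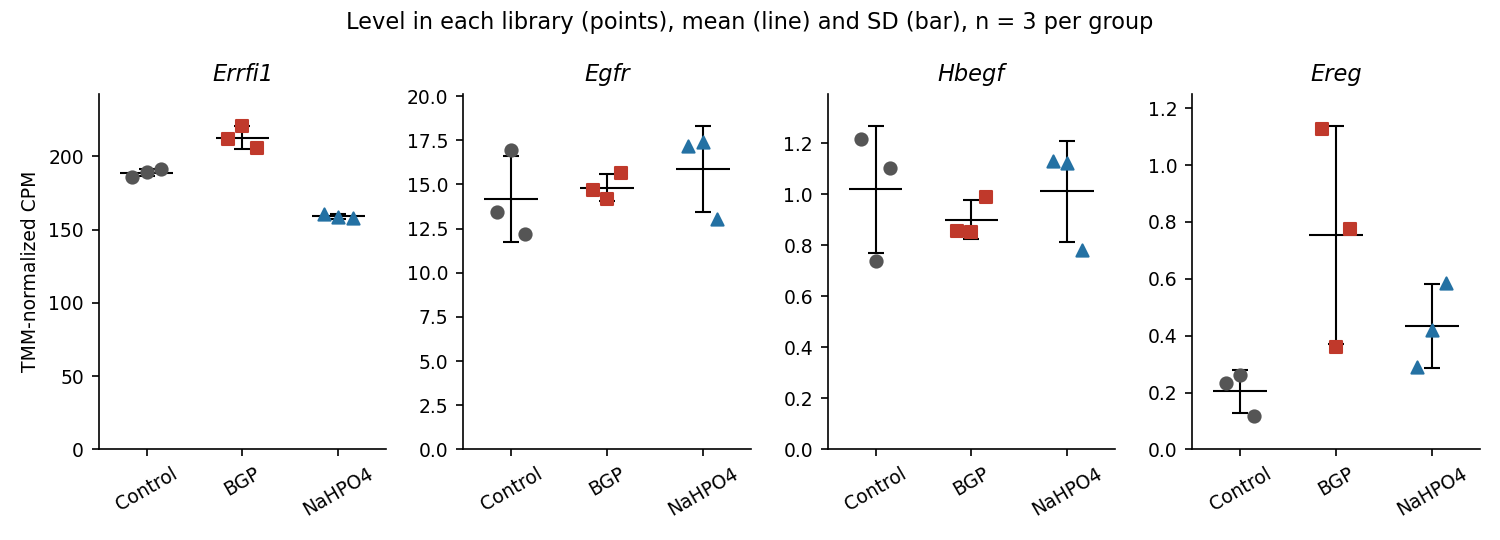
TMM-normalized CPM of Errfi1, Egfr, Hbegf and Ereg in each library of the Control, BGP and NaHPO4 groups (points), with group means (lines) and SD (bars) of 3 libraries, each panel on its own linear axis from 0. The 3 groups of Errfi1 are apart (186 to 191, 205 to 221 and 158 to 160.4 CPM), those of Egfr and Hbegf overlap, and all Control libraries of Ereg lie below all others.

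*Egfr*, the receptor itself, was expressed in all libraries and was similar among the groups. It lies on chromosome 11 at 16702198 to 16868158 (GRCm39, + strand, 28 exons). Its level was 13.4, 16.9 and 12.2 CPM in Control, 14.7, 14.1 and 15.6 CPM with BGP, and 17.2, 17.4 and 13.0 CPM with NaHPO4. All groups overlapped, as the second Control library lay above all BGP libraries and the third NaHPO4 library lay among the Control values. Group means were 14.2 ± 2.45, 14.8 ± 0.760 and 15.9 ± 2.45 CPM (SD, n = 3). The log2FC was 0.07 for BGP versus Control (95% interval -0.14 to 0.28, from 1.96 SE), 0.17 for NaHPO4 versus Control (-0.03 to 0.37) and -0.10 for BGP versus NaHPO4 (-0.30 to 0.10). These intervals do not exclude an increase of *Egfr* of up to a log2FC of 0.28 with BGP or 0.37 with NaHPO4. *Eldr*, a long non-coding RNA gene on the opposite strand within the *Egfr* locus, had 25 to 47 counts per library and shares 0 exon bases with it.

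Because inhibitor and receptor act on each other, their levels were compared per kilobase of exon. *Errfi1* had 31.9, 35.9 and 26.8 CPM per kb in Control, BGP and NaHPO4, against 1.23, 1.28 and 1.37 CPM per kb for *Egfr*. The ratio of *Errfi1* to *Egfr* per kb was 27.0, 21.9 and 30.6 in the Control libraries, 28.2, 30.4 and 25.6 with BGP, and 18.2, 17.8 and 23.6 with NaHPO4. It averaged 26.5 ± 4.38, 28.1 ± 2.42 and 19.9 ± 3.21 (SD, n = 3). BGP and NaHPO4 did not overlap in this ratio, whereas the second Control library fell within the NaHPO4 range. *Errfi1* was higher than 93.9% of the 13679 tested genes in CPM and *Egfr* than 39.4%. *Erbb2*, the co-receptor that has no ligand of its own, had 12.4, 12.4 and 11.4 CPM per kb and thus stood above *Egfr* in all groups.

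*Hbegf*, which encodes heparin-binding EGF-like growth factor, had the highest summed counts of the 4 ligands in every group, and it was similar in the 3 groups. The gene has 6 exons and lies on chromosome 18 at 36637980 to 36649677 (GRCm39, - strand). It had 26, 17 and 28 counts in the Control libraries, 19, 19 and 23 with BGP, and 31, 32 and 20 with NaHPO4. The groups overlapped in every comparison, with the lowest library in Control. In CPM the means were 1.02 ± 0.249, 0.900 ± 0.0770 and 1.01 ± 0.199 (SD, n = 3). The log2FC was -0.18 for BGP versus Control (95% interval -0.82 to 0.47), -0.0045 for NaHPO4 versus Control (-0.63 to 0.62) and -0.17 for BGP versus NaHPO4 (-0.81 to 0.46). At 17 to 32 counts per library a change within these intervals is not excluded. The antisense gene *Gm41698* shares 831 exon bases with *Hbegf* and is not analysed here.

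*Ereg*, which encodes epiregulin, was the member with the largest log2FC, on very few reads. It lies on chromosome 5 at 91222157 to 91241505 (GRCm39, + strand, 5 exons). Its counts were 5, 6 and 3 in the Control libraries, 25, 8 and 18 with BGP, and 8, 12 and 15 with NaHPO4. Every treated library exceeded every Control library, also after scaling, whereas BGP and NaHPO4 overlapped, the second BGP library lying within the NaHPO4 range. In CPM the means were 0.204 ± 0.0759, 0.754 ± 0.385 and 0.433 ± 0.148 (SD, n = 3). Summed over a group, the 14 Control counts have a 95% Poisson interval of 7.65 to 23.5, the 51 counts with BGP one of 38.0 to 67.1, and the 35 counts with NaHPO4 one of 24.4 to 48.7. These intervals cover counting error only.

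The log2FC of *Ereg* was 1.88 ± 0.523 (SE) for BGP versus Control, 1.08 ± 0.560 for NaHPO4 versus Control and 0.80 ± 0.440 for BGP versus NaHPO4. Without the first BGP library the log2FC for BGP versus Control was 1.48 and without the second BGP library 2.21. Filtering itself bears on this gene, since *Ereg* reached the filter level of 0.425 CPM (before TMM scaling) in 0 Control, 2 BGP and 2 NaHPO4 libraries, and so passed only through the treated groups, in which it was high. *Gm19610*, an antisense gene that shares 173 exon bases with *Ereg*, had 0 to 5 counts per library.

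*Areg*, which encodes amphiregulin and whose promoter is printed above, had 0 counts in all Control libraries, 4, 1 and 0 counts with BGP, and the same 4, 1 and 0 counts with NaHPO4. It has 6 exons on chromosome 5 at 91287451 to 91296291 (GRCm39, + strand). With 5 counts in each treated group and 0 in Control, where a true sum of up to 3.69 counts is within the 95% Poisson interval, no difference was detectable at this depth. *Btc*, which encodes betacellulin, had 1 count in the second BGP library and 0 in the other 8 libraries. It has 6 exons on chromosome 5 at 91505120 to 91550883 (GRCm39, - strand). Neither gene passed the filter on low counts.

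*Ereg*, *Areg* and *Btc* are neighbours in the genome, in a cluster of 375.6 kb that begins with a further EGF receptor ligand, *Epgn* (epigen). From the start of *Epgn*, *Ereg* begins at 46.8 kb, *Areg* at 112.1 kb and *Btc* at 329.8 kb. *Epgn* had 0, 1 and 2 counts in Control, 12, 3 and 5 with BGP, and 2, 2 and 6 with NaHPO4, and was too low to be tested. Its first BGP library was the highest, and the lowest BGP library exceeded the highest Control library by 1 count (plot of counts along the cluster). All 3 BGP libraries had more *Epgn* and *Ereg* counts than any Control library, and in *Ereg* too the first BGP library was the highest of all 9. The flanking gene *Mthfd2l*, a mitochondrial enzyme of folate metabolism, had 284 to 503 counts per library, and *Parm1* on the other side had 3 counts in 1 BGP library and 0 in the others.

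**Figure D2:**
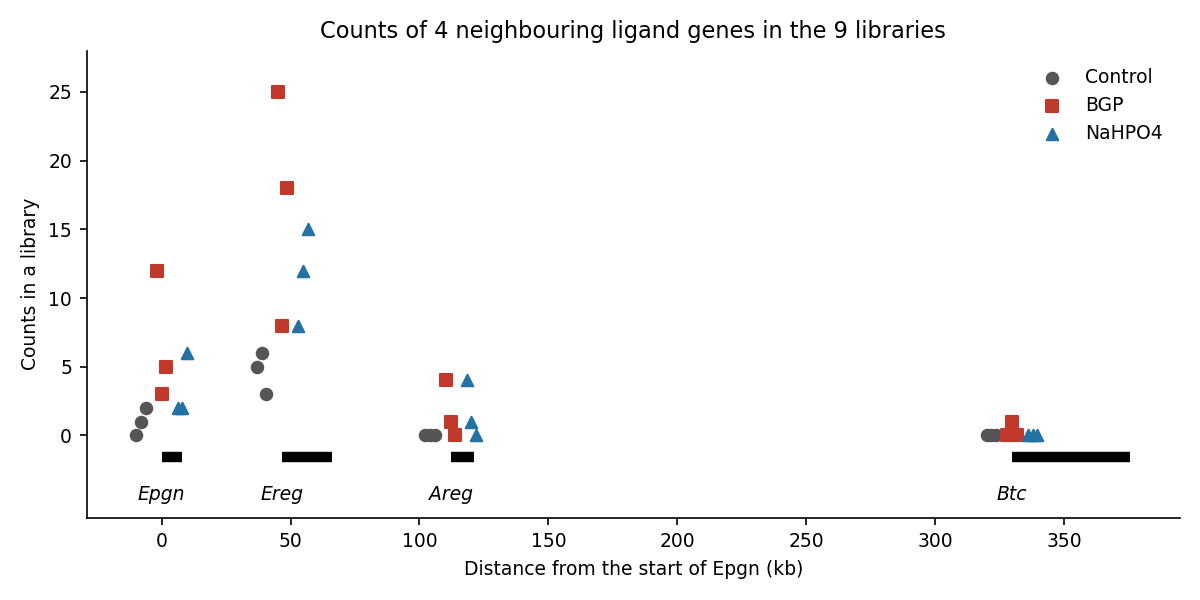
Counts per library (points; Control, BGP and NaHPO4) of the ligand genes Epgn, Ereg, Areg and Btc, placed at the start of each gene by its distance in kb from the start of Epgn (points of a group are shifted sideways, bars mark the gene bodies). Ereg reaches 25 counts and Epgn 12 in the first BGP library, while Areg stays at 4 counts or fewer and Btc at 1 or 0.

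The makeup of the ligand reads followed *Ereg*. Summed over *Hbegf*, *Ereg*, *Areg* and *Btc*, the counts were 85 in Control, 118 with BGP and 123 with NaHPO4. *Hbegf* made up 83.5% of these in Control, 51.7% with BGP and 67.5% with NaHPO4. By library its share was 83.9%, 73.9% and 90.3% in Control, 39.6%, 65.5% and 56.1% with BGP, and 72.1%, 71.1% and 57.1% with NaHPO4. The Control libraries had the highest shares and did not overlap with the others, while BGP and NaHPO4 overlapped. These shares restate the *Ereg* counts above and hold for the 4 listed ligands only. *Egf*, outside this sum, had 141, 134 and 181 summed counts in Control, BGP and NaHPO4, more than the 4 together in each group. *Epgn*, also outside it, had 3, 20 and 10.

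Per kb of exon, the members ranked *Errfi1*, *Egfr*, *Hbegf*, *Ereg* in each group. *Hbegf* had 0.199, 0.176 and 0.198 CPM per kb in Control, BGP and NaHPO4 and *Ereg* 0.0459, 0.169 and 0.0972. In the BGP group *Hbegf* and *Ereg* were within their spread of each other (0.176 ± 0.0151 and 0.169 ± 0.0864 CPM per kb, SD, n = 3), so their order there is not settled. *Egf*, which encodes EGF itself, had 0.167 ± 0.0273, 0.162 ± 0.0386 and 0.182 ± 0.0342 CPM per kb and lay within the spread of *Hbegf*. In CPM *Hbegf* stood above 11.4% and *Ereg* above 3.80% of the tested genes.

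A differentially expressed gene (DEG) was one with a false discovery rate (FDR) below 0.05 and a log2FC above 0.5 in size. Of the 4 members that passed the filter, 1 (*Ereg*) was counted as a DEG for BGP versus Control, and 0 were for NaHPO4 versus Control or BGP versus NaHPO4. Of all tested genes 0.556%, 0.716% and 0.585% were DEGs in these comparisons. An FDR below 0.05 alone was met by 2 members (*Errfi1* and *Ereg*) for BGP versus Control and by 1 (*Errfi1*) in each of the other comparisons, against 2.53%, 7.38% and 5.38% of all tested genes. Libraries did not overlap between the groups for 2, 2 and 1 members, against 18.5%, 23.2% and 21.2% of all tested genes. The count of *Ereg* was lost with DESeq2, which gave no adjusted value, with limma on the TMM table, with the replicate block, in a fit of only the 2 groups or with at least 10 counts in every library, both of which left *Ereg* untested, and without any 1 Control library, the first or the third BGP library or the second NaHPO4 library. The 3 comparisons share libraries, and since the members were chosen with these results known, nothing follows from their counts.

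To place the members in their pathway, 67 further genes were listed by role from general knowledge of EGF receptor signalling, of which 58 could be tested by edgeR's quasi-likelihood test with Benjamini-Hochberg adjustment over all genes. For BGP versus Control 7 of the 58 rose and 0 fell at an FDR below 0.05, and 4 of the 7 were DEGs. For NaHPO4 versus Control 5 rose and 2 fell, with 3 DEGs, all upregulated. For BGP versus NaHPO4 6 were higher with BGP and 0 lower, with 0 DEGs. DESeq2 and limma also found 0 lower with BGP in that comparison and 0 DEGs, each with 4 higher, and at an unadjusted p below 0.05 edgeR had 11 higher and 1 lower. In the comparison of BGP with Control both tools likewise found 7 higher and 0 lower, with 14 higher and 3 lower at an unadjusted p below 0.05 by edgeR. For NaHPO4 versus Control DESeq2 found 4 higher and 2 lower, and limma 5 higher and 2 lower. At an unadjusted p below 0.05 edgeR had 11 higher and 7 lower there. For BGP versus Control, NaHPO4 versus Control and BGP versus NaHPO4, the median log2FC of the 58 genes was 0.05, 0.03 and 0.02. For all tested genes it was -0.0043, 9.7e-05 and -0.0018. Of all tested genes 2.53%, 7.38% and 5.38% had an FDR below 0.05, and 0.556%, 0.716% and 0.585% were DEGs. The counts by role below are to be read beside these shares. Outside the list of ERK-dependent transcripts, 2 of 48 genes rose and 0 fell with BGP, and 2 rose and 2 fell with NaHPO4 (plot of pathway genes by role). These counts are near the shares of all tested genes, and nothing is read from them.

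**Figure D3:**
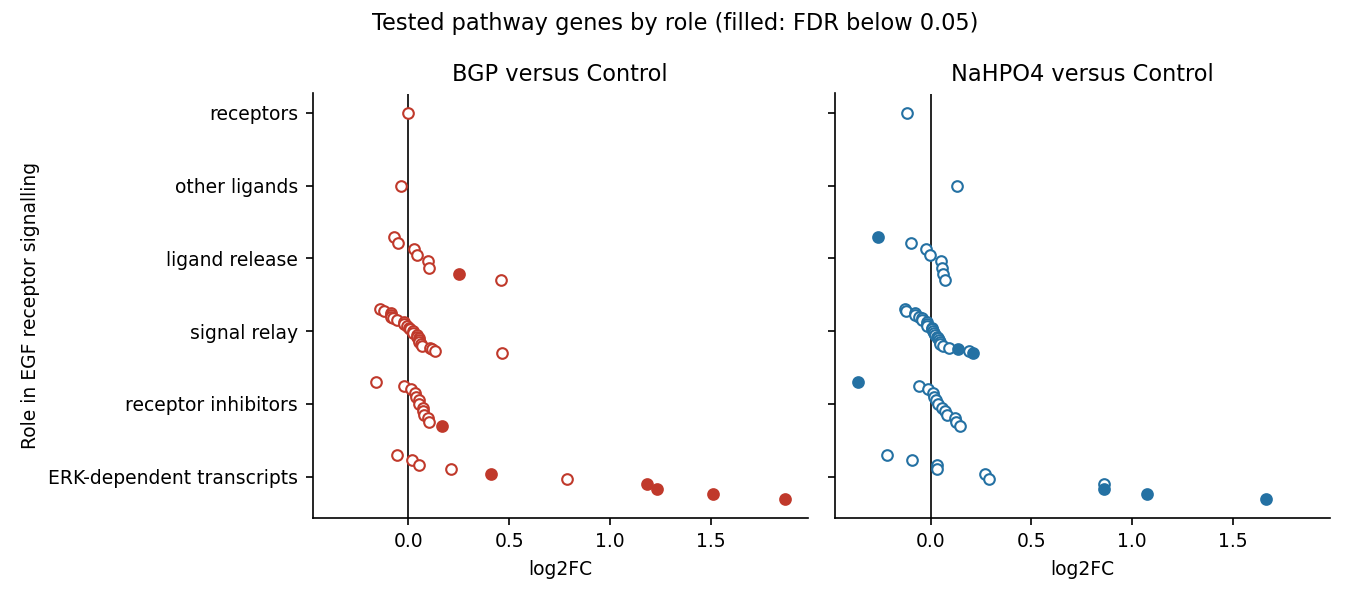
Log2FC of the 58 tested pathway genes by role, for BGP versus Control (left) and NaHPO4 versus Control (right), 1 point per gene, filled where the FDR was below 0.05. The 4 largest changes with BGP and the 3 largest called changes with NaHPO4 are among the ERK-dependent transcripts, and most genes of the other roles lie near 0.

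Of the receptor's partners, only *Erbb2* could be tested of 3 listed, and it did not pass an FDR of 0.05 in any comparison, with 67.1 ± 4.94, 67.0 ± 2.38 and 61.9 ± 1.18 CPM in Control, BGP and NaHPO4 (SD, n = 3). *Erbb3* and *Erbb4* had 0 counts in all libraries. Among 7 further ligand genes only *Egf* was tested, at 2.04 ± 0.334, 1.98 ± 0.471 and 2.23 ± 0.418 CPM, with an FDR of 0.792 or above by edgeR in the 3 comparisons. *Tgfa*, which encodes TGF-alpha, had 0 to 4 counts per library and *Nrg1* had 0 to 12.

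Of the 8 genes that act in ligand release, all tested, 1 rose with BGP and 1 fell with NaHPO4. *Rhbdf1*, which encodes an inactive rhomboid that carries the sheddase ADAM17 to the cell surface, was upregulated by BGP (85.1 ± 3.48 against 71.6 ± 0.924 CPM; log2FC 0.25, FDR 0.0002, edgeR). With NaHPO4 its log2FC was -0.0040 (FDR 0.972, edgeR), and it was higher with BGP than with NaHPO4 by a log2FC of 0.25 (FDR 7.4e-05, edgeR). *Adam12*, a metalloprotease that can cut *Hbegf*'s product free, was downregulated by NaHPO4 (145 ± 10.5 against 174 ± 4.05 CPM; log2FC -0.26, FDR 3.9e-05, edgeR). It was higher with BGP than with NaHPO4 by a log2FC of 0.19 (FDR 0.0038, edgeR), a call that was lost when the first BGP or the third NaHPO4 library was left out.

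Of 25 genes that relay the signal, 0 passed an FDR of 0.05 for BGP versus Control by edgeR, DESeq2 or limma, with 3 higher and 3 lower at an unadjusted p below 0.05 by edgeR. With NaHPO4, 2 rose. *Stat3*, a transcription factor that the receptor activates, rose with NaHPO4 by a log2FC of 0.21 ± 0.0363 (SE), from 160.4 ± 7.15 to 186 ± 3.48 CPM, with an FDR of 9.2e-05 by edgeR. *Pik3ca*, a catalytic subunit of PI3K, rose by 0.14 ± 0.0435 (FDR 0.0457, edgeR). Its call was lost with DESeq2, in a fit of only the 2 groups, without the second or the third Control library, without any 1 BGP library and without the first or the third NaHPO4 library. For BGP versus Control the log2FC was 0.12 for *Stat3* (FDR 0.0783, edgeR) and 0.13 for *Pik3ca* (FDR 0.119, edgeR). For BGP versus NaHPO4 it was -0.09 (FDR 0.148, edgeR) and -0.0050 (FDR 0.975, edgeR), respectively. Neither gene thus passed the threshold between the phosphates in the main fit. The adaptors and the RAS, RAF, MEK and ERK genes on the list did not pass the threshold in any comparison.

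Of 14 genes that inhibit the receptor or its signal, 13 were tested beside the member *Errfi1*. *Lrig1*, which encodes a membrane protein that promotes degradation of the receptor, fell with NaHPO4 from 13.0 ± 0.523 to 10.2 ± 0.838 CPM (log2FC -0.36, FDR 0.0098, edgeR), a call lost without the first NaHPO4 library (log2FC -0.30). With BGP it had a log2FC of -0.16 and did not pass the threshold (FDR 0.483, edgeR). *Ptpn1*, a phosphatase that acts on the receptor, rose with BGP by a log2FC of 0.17 (FDR 0.0313, edgeR), and this call was lost without the first or second Control or the first or second BGP library. It was also higher with BGP than with NaHPO4, by a log2FC of 0.15 (FDR 0.0364, edgeR), a call lost with DESeq2, limma or total counts and without the first or second library of either group. *Errfi1* and *Lrig1* were thus both lower with NaHPO4 than in Control. The other 12 tested inhibitors did not pass the threshold in that comparison, and the median log2FC of the 13 was 0.04.

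The 10 ERK-dependent transcripts are a published list of genes whose RNA reflects activity of the ERK cascade, which many receptors besides the EGF receptor feed. All 10 were tested, and 5 rose with BGP and 3 with NaHPO4, with 0 falling (plot of log2FC of members and pathway genes). Of all tested genes 2.53% and 7.38% had an FDR below 0.05 in these comparisons. Their median log2FC was 0.60 with BGP and 0.28 with NaHPO4. *Etv4*, an ETS transcription factor, rose from 4.64 ± 0.576 to 17.0 ± 1.83 CPM with BGP (log2FC 1.87 ± 0.123, SE) and to 14.8 ± 2.39 CPM with NaHPO4 (1.66 ± 0.123). *Phlda1* rose from 4.90 ± 1.27 to 14.1 ± 0.941 CPM with BGP (log2FC 1.51) and to 10.4 ± 0.694 CPM with NaHPO4 (1.07). *Dusp6*, a phosphatase that switches off ERK, rose from 45.8 ± 6.93 to 108 ± 10.8 CPM with BGP (log2FC 1.23) and to 83.5 ± 5.90 CPM with NaHPO4 (0.86). For these 3 genes the FDR was 1.6e-07 or below in both comparisons by edgeR.

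*Spry4*, a Sprouty inhibitor of receptor tyrosine kinase signalling, rose with BGP from 0.699 ± 0.158 to 1.60 ± 0.272 CPM (log2FC 1.18, FDR 0.0337, edgeR). The call was lost without any 1 Control library and without the first or second BGP library. With NaHPO4 it reached 1.28 ± 0.220 CPM (log2FC 0.86, FDR 0.103, edgeR). *Etv5*, named here because it completes the 5, rose with BGP by a log2FC of 0.41 (FDR 0.0271, edgeR), a call lost without the first or second Control or the first or second BGP library. *Spry2*, *Dusp4*, *Ccnd1*, *Epha2* and *Epha4* did not pass the threshold against Control with either phosphate, and *Ccnd1*, which encodes cyclin D1, was at 462 ± 15.9, 468 ± 15.9 and 472 ± 8.96 CPM.

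BGP and NaHPO4 were also compared directly for these transcripts. *Dusp6* was higher with BGP by a log2FC of 0.37 ± 0.0634 (SE) and *Phlda1* by 0.44 ± 0.111, with FDRs of 0.0001 and 0.0118 by edgeR. *Epha4* was higher with BGP by 0.43 ± 0.120 (FDR 0.0241, edgeR). The call of *Dusp6* was lost with DESeq2 (adjusted p = 0.0700). That of *Phlda1* was lost with limma and without the first or second BGP or the first NaHPO4 library, and that of *Epha4* without the first or second BGP or the third NaHPO4 library. *Etv4*, *Spry4* and *Etv5* did not pass the threshold in this comparison, with log2FCs of 0.21, 0.32 and 0.12. *Errfi1* differed from *Etv4*, *Phlda1* and *Dusp6* in its direction with NaHPO4. There *Errfi1* was lower than Control in 3 of 3 libraries while *Etv4*, *Phlda1* and *Dusp6* were higher in 3 of 3. *Epha4* and *Epha2* of the same list also had negative log2FCs for NaHPO4 versus Control (-0.22 and -0.09). Neither passed the threshold there (FDR 0.33 and 0.108, edgeR).

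**Figure D4:**
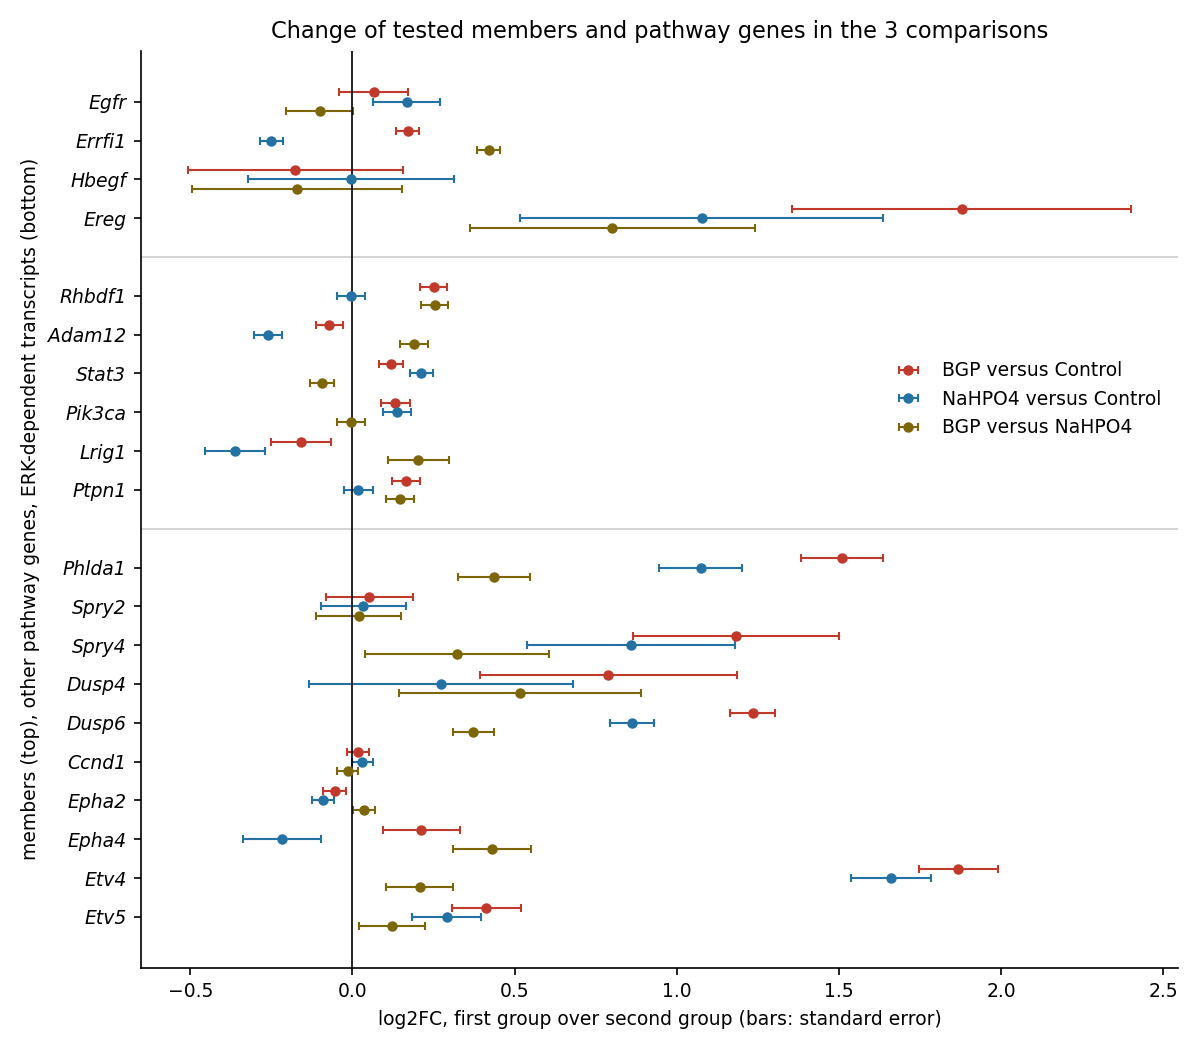
Log2FC with its standard error for the tested members (top), the pathway genes named by role (middle) and the 10 ERK-dependent transcripts (bottom), for BGP versus Control, NaHPO4 versus Control and BGP versus NaHPO4. Errfi1 lies at 0.17 with BGP and at -0.25 with NaHPO4, whereas Etv4, Phlda1 and Dusp6 lie between 0.86 and 1.87 with both phosphates, and the error of Ereg is the widest of the members.

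The genes whose pattern over the 9 libraries was closest to that of *Ereg* were found by the root mean square difference of gene-centred log2 CPM, among all tested genes. They were *Glns-ps1* (0.37), *Lat2* (0.39) and *Abca13* (0.41), beside a root mean square of 0.75 for *Ereg* itself. *Lat2* had 0.537, 1.64 and 1.16 CPM in Control, BGP and NaHPO4. *Glns-ps1* had 0.173, 0.382 and 0.333 CPM and *Abca13* 0.145, 0.666 and 0.288 CPM. The Control means of *Glns-ps1* and *Abca13* were thus near the level of 3 counts in a library. For *Errfi1*, added after its values were seen, the closest were *Hhipl1* (0.06), *Mef2a* (0.07) and *2900026A02Rik* (0.07), beside 0.17 for *Errfi1* itself. *Mef2a*, which encodes a transcription factor, had 306, 335 and 277 CPM. Since these genes were picked by their closeness in the same libraries, a shared order of groups follows from the choice and shows no link.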

How the data were processed

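The authors mapped paired reads of stranded poly(A) libraries to GRCm39 with an Ensembl annotation in the AIR software and deposited a table of raw counts per gene. The aligner, the counting program and the use of strand are not given in the sources used here. The authors also deposited a signal table of TMM-scaled values, used for 1 alternative only. Groups and replicate numbers came from the sample labels, and 0 columns belonged to other samples. Of 55416 genes, 1492 had no symbol.

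Genes were filtered by filterByExpr with a count minimum of 10, leaving 13679, scaled by TMM and fitted over all 9 libraries with edgeR 4.0.16 (glmQLFit, glmQLFTest; R 4.3.3), with Benjamini-Hochberg adjustment. Genes with an FDR below 0.05 whose log2FC exceeded 0.5 in size were called DEGs. CPM are TMM-normalized, and levels per kb use the union of exons of a later GENCODE annotation, which held 13631 of the tested genes. No 2 replicates agreed within sampling noise (chi-square per degree of freedom 2.56 to 4.64). The procedure was tested on simulated data.

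The members and gene lists were chosen with earlier results of these data known. Genes named are the members, up to 4 genes per role with an FDR below 0.05 in any comparison, the 3 genes nearest to a called member, overlapping or neighbouring genes, and markers. *Erbb2*, *Egf*, *Tgfa*, *Etv5*, the remaining ERK-dependent transcripts and genes listed at 0 were named after their values were seen. Alternatives were DESeq2 1.42.0, limma 3.58.1 on the deposited signal, other scalings, filters and fits, a replicate block and leaving out single libraries. Tables and plots used Python 3.11.15, pandas 2.3.3, scipy 1.17.1 and matplotlib 3.10.9. Intervals of counts cover counting error only.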

Additional observations from a re-analysis of the deposited data

How the results depend on the processing

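*Errfi1* kept its direction in all 18 alternatives of each comparison, with log2FCs of 0.14 to 0.19 for BGP versus Control, -0.26 to -0.23 for NaHPO4 versus Control and 0.39 to 0.44 for BGP versus NaHPO4. The count of 1 member called for BGP versus Control, which is *Ereg*, became 0 with a fit of only the 2 groups, DESeq2, limma on the TMM table, at least 10 counts in every library and the replicate block, lay between 0 and 1 when a library was left out, and was 2 without a minimum log2FC. *Ereg* was not testable in the fit of the 2 groups and with at least 10 counts in every library, and its adjusted p by DESeq2 was NA. Its log2FC stayed between 1.48 and 2.21. The cause was not tested.

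Without a minimum log2FC the count of members was 1 for NaHPO4 versus Control and 1 for BGP versus NaHPO4 in place of 0, that of pathway genes 7, 7 and 6 in place of 4, 3 and 0, and that of all genes 346, 1009 and 736 in place of 76, 98 and 80. Leaving out a library gave 0 to 1 pathway genes for BGP versus NaHPO4, with 1 called without the third BGP or the second NaHPO4 library. The likelihood ratio test gave 159 genes for NaHPO4 versus Control and 122 for BGP versus NaHPO4. With the replicate block the pathway counts were 4, 3 and 0 and those of all genes 76, 101 and 87. Deviations of libraries with the same number correlated at -0.0092 to 0.0426, and those with different numbers at -0.0456 to 0.0239. The same-number pairs of Control and NaHPO4 were the highest, at 0.0301, 0.0426 and 0.0409. Correlations this small do not settle whether the number pairs the libraries. Depth limits *Hbegf*, *Ereg*, *Areg* and *Btc*, which had at most 32 counts in any library.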
